A study of Homo sapiens with 8 samples.

Results

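The proteasome subunits, activators and assembly factors described here are the genes whose annotated symbol was PSMA, PSMB, PSMC, PSMD, PSME or PSMG followed by digits, or POMP. They comprised 44 genes with 105 probe sets that carried a single symbol, out of 18132 genes and 49293 probe sets in all. They were measured in H1299, a line of human non-small cell lung carcinoma cells, on 8 one-colour arrays. USF1 knockdown cells (3 arrays), transfected with short hairpin RNA against the E-box transcription factor USF1, were set against control cells for the USF1 knockdown (3 arrays). UGT1A3 knockdown cells (1 array), transfected with short hairpin RNA against the glucuronosyltransferase UGT1A3, were set against control cells for the UGT1A3 knockdown (1 array). The labels do not say what the control cells received, nor how many hairpins or clones were used. The proteasome genes PSMC5, PSMD7 and PSMD13 were not analysed here, and PSMA6 was read only on a probe set shared with another gene, given among the closing observations.

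The proteasome is the large protease complex that degrades ubiquitin-tagged proteins in the cytosol and nucleus. Its barrel-shaped core is built of an alpha ring (PSMA genes) and a beta ring (PSMB genes), and 3 of the beta subunits carry the catalytic sites. The 19S regulatory particle (PSMC and most PSMD genes) recognises, unfolds and feeds in the substrate. Interferons are known to induce the alternative catalytic subunits PSMB8, PSMB9 and PSMB10, which replace PSMB5, PSMB6 and PSMB7 to form the immunoproteasome, and to induce the PA28 activator subunits PSME1 and PSME2. The immunoproteasome and PA28 are best known for shaping the peptides shown on MHC class I molecules. Dedicated chaperones (PSMG genes, POMP and some PSMD proteins) assemble the parts.

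Values are log2 intensities, so a difference of 1 is a doubling, and each knockdown was compared only with its own controls, because the array medians were 6.53 to 6.55 in the USF1 set and 5.59 to 5.63 in the UGT1A3 pair. On its single probe set USF1 read 6.06, 5.88 and 6.13 in the USF1 knockdown arrays and 6.31, 6.55 and 6.42 in their controls. It fell by 0.40 in the USF1 knockdown arrays (SE 0.08, n = 3 against 3, limma adjusted p = 0.00818). These readings were not far above the limit of 5.63 for dim signals in the USF1 arrays. For the UGT1A3 pair, the brightest of 9 probe sets shared by UGT1A genes read 4.31 in the knockdown array and 4.56 in the control array, both under the limit for dim signals, so this target was not resolved. Of the H1299 and epithelial markers, VIM, KRT8, KRT18 and CDH2 lay above that limit, and EPCAM, CDH1 and KRT19 did not. The small number of arrays limits the precision. Nothing says that the replicates were separate cultures, so the p-values reflect only how far these samples spread, which may be technical. In such bulk RNA, fewer cells of a kind and less RNA per cell cannot be told apart.

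After USF1 knockdown 4 inducible proteasome genes, PSMB8, PSMB9, PSME1 and PSME2, rose by 0.29 to 0.57. The inducible PSMB10 differed by 0.01, and the constitutive core and 19S genes moved by -0.14 to 0.16. PSMA8 and PSMB11, the core subunits known from testis and thymus, had means of 3.61 and 3.82, under the limit of 5.63 for dim genes, and were not tested. Of the 42 genes above the limit, 8 rose and 4 fell at an adjusted p of 0.05 (limma, two-sided, adjusted over 11448 genes). That is 19% and 9.52% of the members, against a background of 22% of all tested genes that rose and 18.7% that fell (40.7% in either direction). Among rises of at least 1.2-fold stood 4 members (9.52%), against 7.58% of all genes, and no member fell by that much, against 7.09% of all genes. The knockdown and control arrays did not overlap for 19 members higher in the knockdown (45.2%, background 29%) and for 8 lower in it (19%, background 24.6%). The median change was 0.05 over the members and 0.01 over all tested genes.

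**Figure D1:**
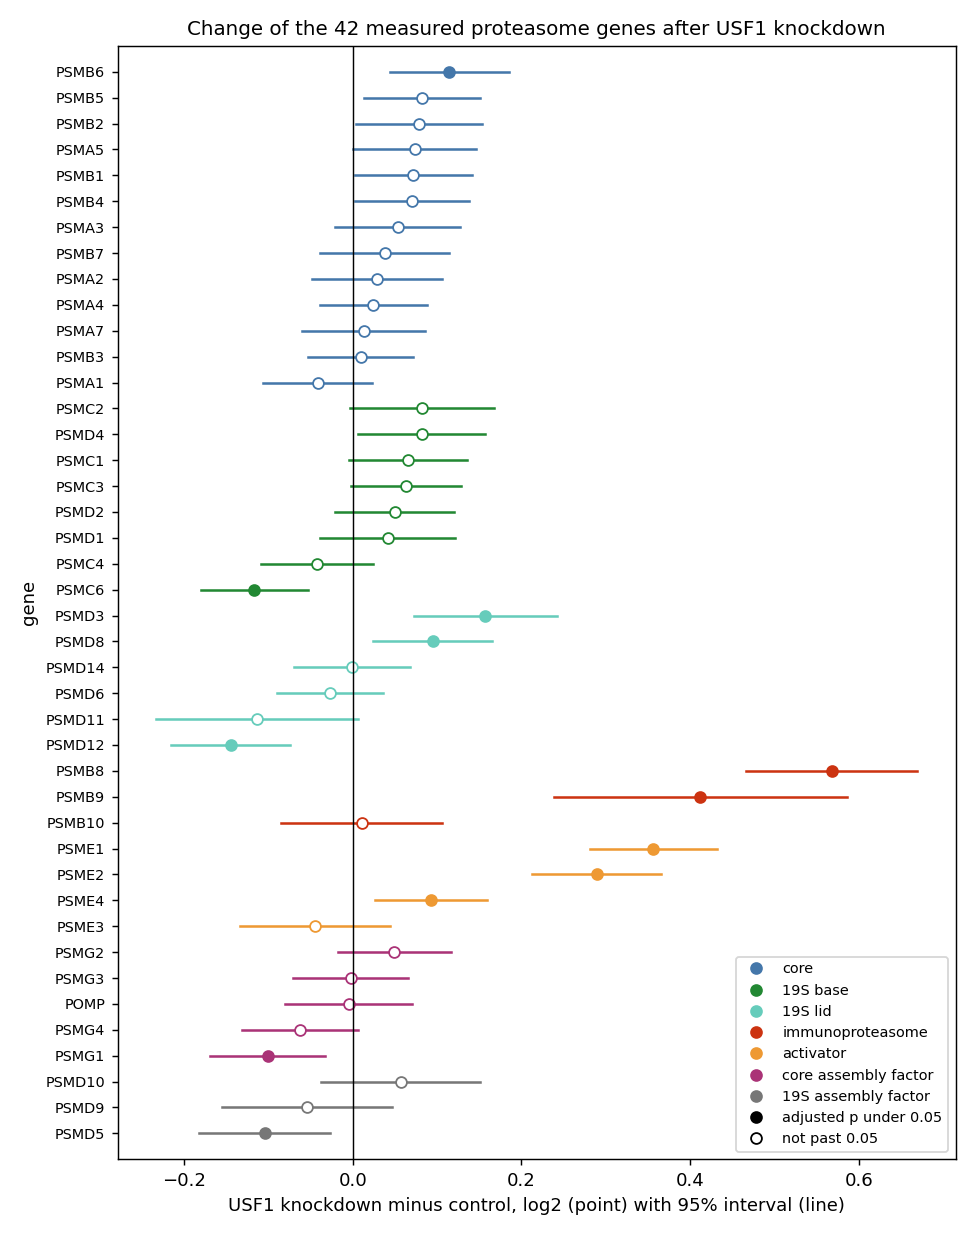
Change of each measured proteasome gene after USF1 knockdown (log2 knockdown minus control, point) with its 95% interval (line), by class. Filled points passed an adjusted p of 0.05, and PSMB8, PSMB9, PSME1 and PSME2 stand apart at 0.29 to 0.57.

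The counts of called members depended on single arrays. Rises numbered 5 without knockdown 1 or without control 1, 2 or 3, then 6 without knockdown 2 and 8 without knockdown 3. Falls numbered 1 without control 1, 2 without knockdown 3, control 2 or control 3, then 3 without knockdown 1 and 4 without knockdown 2. The counts over all genes shifted too, from 2515 rises and 2142 falls among 11448 genes with all arrays. Rises over all genes then ran from 1953 of 11458 (without control 1) to 2481 of 11426 (without knockdown 3). Falls ran from 1656 of 11463 (without control 3) to 2085 of 11455 (without knockdown 2). PSMB8, PSMB9, PSME1, PSME2 and PSMD3 (upward) and PSMD12 (downward) kept their calls under every alternative in which they were measured, and the calls of PSMB6, PSMC6, PSMD5, PSMD8, PSME4 and PSMG1 did not.

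PSMB8, which supplies the chymotrypsin-like site of the immunoproteasome, read 9.14, 9.21 and 9.07 in the knockdown arrays, against 8.54, 8.57 and 8.61 in the controls. Every knockdown array lay above every control. The rise was 0.57 (SE 0.04, 95% interval 0.47 to 0.67, adjusted p = 1.80e-04), or 1.48-fold. Its other bright probe set rose by 0.56. Averaged over every probe set, dim ones included, PSMB8 rose by 0.33 and kept its call.

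PSMB9, which replaces the caspase-like PSMB6, read 7.87, 8.0 and 7.71 in the knockdown arrays and 7.39, 7.49 and 7.45 in the controls. The groups did not overlap, and the knockdown arrays were spread more widely than the controls (SD 0.147 against 0.0478). The rise was 0.41 (SE 0.07, 95% interval 0.24 to 0.59, adjusted p = 0.00468), or 1.33-fold, and the other bright probe set gave 0.36. Averaged over every probe set, PSMB9 rose by 0.23 and kept its call.

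PSMB10, which replaces the trypsin-like PSMB7, read 9.54, 9.48 and 9.5 in the knockdown arrays and 9.47, 9.57 and 9.45 in the controls. The groups overlapped. The difference was 0.01 (95% interval -0.09 to 0.11, adjusted p = 0.859), and its 3 probe sets ran from 0.01 to 0.08.

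Leukocytes carry much immunoproteasome, so their markers were read beside these genes. Of 11 leukocyte markers with a probe set, only CD68 and CORO1A lay above the limit, and PTPRC, the pan-leukocyte marker, did not. The summed intensity of the list was 967 to 1030 in the knockdown arrays and 1010 to 1050 in the controls. CD68, the brightest marker, weighs most in this sum. It read 9.33, 9.46 and 9.32 in the knockdown arrays and 9.43, 9.46 and 9.48 in the controls. Whether leukocyte RNA had a part in the changes of PSMB8 and PSMB9 was not tested.

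The activator genes split. PSME1, the alpha subunit of PA28, read 10.83, 10.78 and 10.77 in the knockdown arrays and 10.41, 10.46 and 10.44 in the controls. It rose by 0.36 (SE 0.03, adjusted p = 3.23e-04), or 1.28-fold, and its 3 probe sets rose by 0.36 to 0.43. PSME2, the beta subunit of PA28, read 10.40, 10.39 and 10.40 in the knockdown arrays and 10.09, 10.07 and 10.16 in the controls, a rise of 0.29 (SE 0.03, adjusted p = 7.37e-04) on its single probe set. For both PA28 subunits all knockdown arrays lay above all controls.

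PSME3, the nuclear PA28 gamma, read 9.33, 9.41 and 9.35 in the knockdown arrays and 9.38, 9.46 and 9.38 in the controls. These overlapped and the difference was -0.04 (95% interval -0.13 to 0.04, adjusted p = 0.388). Tested singly over all probe sets, its other 2 probe sets fell, by 0.16 and 0.19 (adjusted p = 0.0387 and 0.00618). PSME4, the PA200 activator, rose by 0.09 on its brightest probe set (adjusted p = 0.035), yet its 6 bright probe sets ran from -0.21 to 0.09, of which 2 fell when tested singly. The mean of its probe sets gave -0.05 (adjusted p = 0.209), so its direction depended on the probe set.

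**Figure D2:**
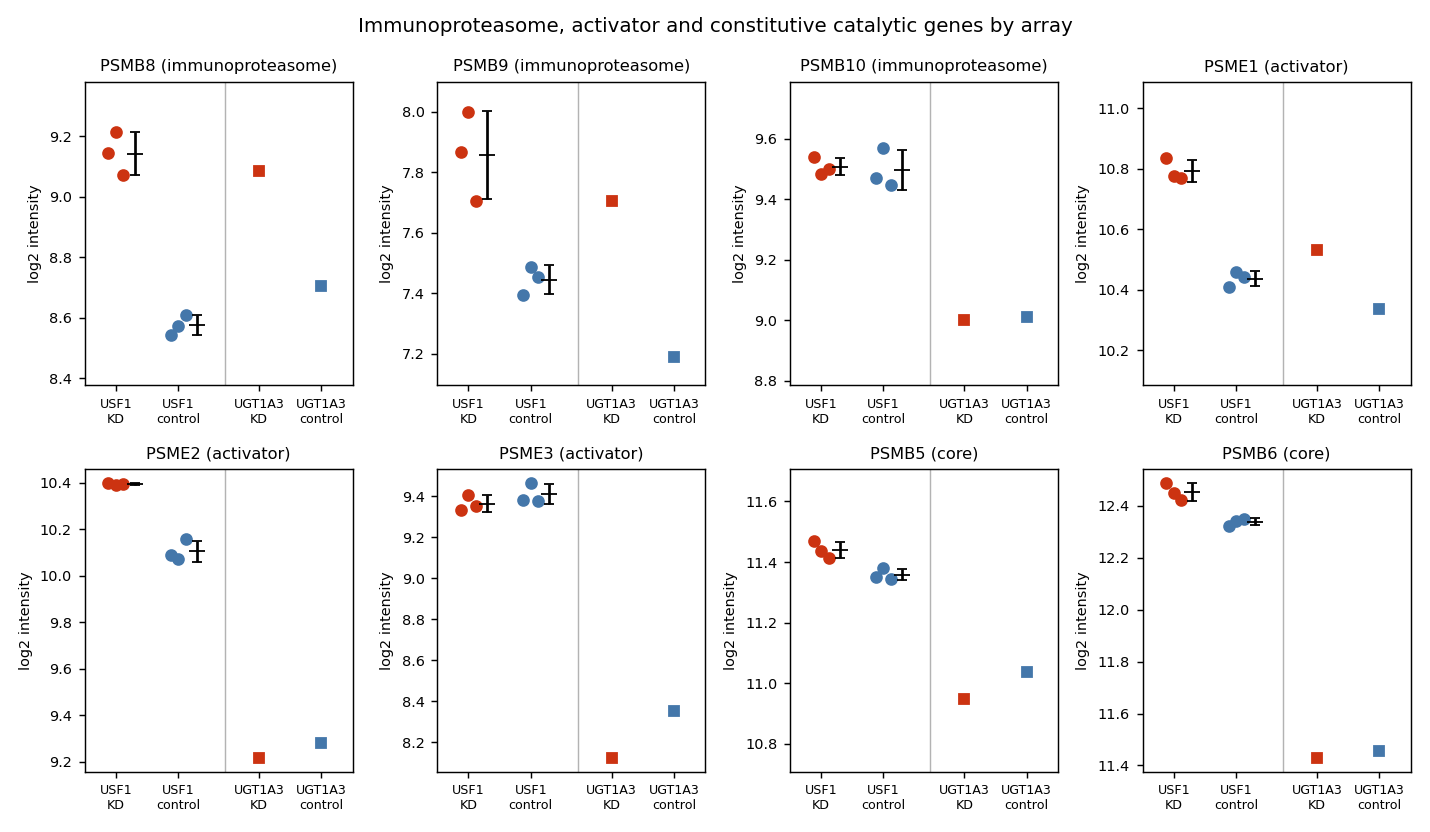
Log2 intensity of 8 proteasome genes on each array, with USF1 arrays as circles (mean and SD in black, n = 3 each) and the UGT1A3 pair as squares. Knockdown arrays are red and controls blue. The PSMB8, PSMB9, PSME1, PSME2, PSMB5 and PSMB6 knockdown arrays lie above their USF1 controls, and those of PSMB10 and PSME3 overlap them.

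Promoter windows of these genes are shown because those of 4 genes share a stretch of letters that the PSMB9 window lacks. A window need not hold the whole promoter. The sequences are RefSeq windows of 300 bases on GRCh38.p14, from 250 bases before to 50 after the annotated start, printed on the gene's own strand. Capitals mark matches on either strand to GAAA followed by 2 bases of any kind and GAAA, the core of the interferon-stimulated response element, and to TGACNNNGC, the core of the antioxidant response element bound by NFE2L1 and NFE2L2. The capitals in PSMB8, PSMB10, PSME1 and PSME2 that read GAAAGCGAAA, or TTTCGCTTTC on the other strand, are of the first kind. For PSMB8 the window of its second annotated start is given, since the other holds no match to the first kind.
PSMB8 (chr6:32843998-32844297, minus strand): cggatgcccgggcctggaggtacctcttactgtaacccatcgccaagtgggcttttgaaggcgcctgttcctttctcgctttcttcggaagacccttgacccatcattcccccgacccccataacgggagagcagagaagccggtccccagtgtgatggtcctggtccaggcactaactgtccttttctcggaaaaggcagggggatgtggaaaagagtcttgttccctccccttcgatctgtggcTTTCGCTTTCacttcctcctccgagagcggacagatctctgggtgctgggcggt
PSMB9 (chr6:32853942-32854241, plus strand): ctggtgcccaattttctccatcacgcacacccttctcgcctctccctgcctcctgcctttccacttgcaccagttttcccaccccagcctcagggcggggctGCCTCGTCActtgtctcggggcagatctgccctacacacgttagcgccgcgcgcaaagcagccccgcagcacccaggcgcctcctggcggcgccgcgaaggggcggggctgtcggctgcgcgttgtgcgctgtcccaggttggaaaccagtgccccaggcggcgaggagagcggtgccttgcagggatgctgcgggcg
PSMB10 (chr16:67936801-67937100, minus strand): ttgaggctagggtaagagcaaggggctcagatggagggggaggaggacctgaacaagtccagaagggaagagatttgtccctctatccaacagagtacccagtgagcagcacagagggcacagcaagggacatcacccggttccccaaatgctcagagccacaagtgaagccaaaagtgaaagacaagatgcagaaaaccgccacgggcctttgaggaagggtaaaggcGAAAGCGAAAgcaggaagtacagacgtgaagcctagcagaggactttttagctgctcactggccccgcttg
PSME1 (chr14:24135944-24136243, plus strand): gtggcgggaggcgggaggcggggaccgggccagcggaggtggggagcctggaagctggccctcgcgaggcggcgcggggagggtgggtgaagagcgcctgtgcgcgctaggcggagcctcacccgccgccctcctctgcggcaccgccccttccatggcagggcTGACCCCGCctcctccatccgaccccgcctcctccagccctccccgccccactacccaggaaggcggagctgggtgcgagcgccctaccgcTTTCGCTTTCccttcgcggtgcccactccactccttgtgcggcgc
PSME2 (chr14:24146561-24146860, minus strand): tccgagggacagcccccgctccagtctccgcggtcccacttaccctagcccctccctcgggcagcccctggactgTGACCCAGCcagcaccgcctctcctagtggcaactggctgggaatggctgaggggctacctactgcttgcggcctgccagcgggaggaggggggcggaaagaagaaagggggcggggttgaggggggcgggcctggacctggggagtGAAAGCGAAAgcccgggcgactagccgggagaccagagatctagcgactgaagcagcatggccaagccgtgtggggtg

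The stretch GAAAGCGAAA began near the start site, between base 33 before it (PSMG4) and base 5 after it (PSME1). Of the proteasome genes whose windows held it, PSMB8, PSME1 and PSME2 rose, and PSMB10 (0.01) and PSMG4 (-0.06) did not pass. A link between the match and the changes was not tested. The looser interferon core was found in 3.57% of all 35116 promoter windows and in 7 of 44 windows of the proteasome genes. Beside the windows of PSMB8, PSMB10, PSME1 and PSME2, these were those of PSMA4, PSMB4 and PSMG4. It was in none of the 14 windows of 19S genes. TGACNNNGC was found in 13.3% of all windows and in 14 of 44 proteasome windows. CACGTG, the palindromic E-box that USF1 is known to bind, was in 7.26% of all windows and in 3 of 44 proteasome windows (6.82%), those of PSMB3, PSMD9 and PSME3. It was in none of the 5 windows of PSMB8, PSMB9, PSME1 and PSME2. CCAAT, the box bound by NF-Y, was in 34.6% of all windows and in 18 of 44. Windows were matched for 38 of the 44 genes, and a match is a description of letters only.

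PSMB9 lies head to head with TAP1, which encodes a subunit of the peptide transporter of the MHC class I pathway, and their promoter windows share 13 bases. One of the TAP1 windows holds TTTCGCTTTC, the stretch that the PSMB9 window lacks. TAP1, chosen for this position after its values were seen, read 9.03, 8.97 and 9.01 in the knockdown arrays and 8.98, 8.99 and 8.96 in the controls. Its difference was 0.03 (SE 0.03, adjusted p = 0.494), while PSMB9 rose by 0.41.

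The genes that share interferon control or antigen processing with the immunoproteasome were read from a list of 19, of which 15 were bright enough to be tested. Of these 7 rose and 1 fell, where 22% of all tested genes rose and 18.7% fell, with a median of 0.11 against 0.01 over all genes. IRF9, the DNA-binding part of the interferon-activated ISGF3 complex, read 8.40, 8.30 and 8.28 in the knockdown arrays and 7.77, 7.86 and 7.79 in the controls, a rise of 0.52 (SE 0.04, adjusted p = 2.72e-04). The class I heavy chain genes HLA-C and HLA-B rose by 0.46 and 0.24, although 2 probe sets of HLA-C gave 0.21 and 0.46, and such closely related genes can share probes. ERAP1, the aminopeptidase that trims peptides in the endoplasmic reticulum, rose by 0.25, a call lost without probe sets of shared probes (0.09, adjusted p = 0.0696).

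The constitutive core hardly moved. Of 13 measured core genes 1 rose (7.69%, background 22%) and none fell (background 18.7%; limma, 6 at an unadjusted p under 0.05), with changes from -0.04 to 0.11 and a median of 0.05. PSMB6, the caspase-like subunit, was the gene that passed. It read 12.49, 12.45 and 12.42 in the knockdown arrays and 12.32, 12.34 and 12.35 in the controls, a rise of 0.11 (SE 0.03, adjusted p = 0.0209). PSMB5, the chymotrypsin-like subunit and target of bortezomib, read 11.47, 11.44 and 11.41 in the knockdown arrays and 11.35, 11.38 and 11.35 in the controls. These did not overlap, but the difference of 0.08 (95% interval 0.01 to 0.15) did not pass (adjusted p = 0.0597).

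PSMB7, the trypsin-like subunit, differed by 0.04 (95% interval -0.04 to 0.11). The other beta genes PSMB1, PSMB2 and PSMB4 differed by 0.07 to 0.08 (adjusted p = 0.0857 to 0.0898), and PSMB3 by 0.01. All 7 measured beta genes lay above 0, with a median of 0.07. In the alpha ring, whose subunits gate the entry to the barrel, PSMA1, PSMA2, PSMA3, PSMA4, PSMA5 and PSMA7 differed by -0.04 to 0.07 with a median of 0.03. None of these 6 rose or fell at the threshold (background 22% and 18.7%), and 1 had an unadjusted p under 0.05 (limma). The dimmer probe set of PSMA1, at 7.25, 7.57 and 7.40 in the knockdown arrays and 7.17, 7.18 and 6.95 in the controls, gave 0.31 (adjusted p = 0.0431), while the brighter gave -0.04.

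Within each array an inducible gene was then set against a constitutive one, with the control mean at 0: each immunoproteasome gene against the core gene whose place it takes, and PSME1 against PSME3, a separate activator. PSMB8 minus PSMB5 was 0.46, 0.56 and 0.44 in the knockdown arrays and -0.02, -0.03 and 0.05 in the controls. PSMB9 minus PSMB6 was 0.27, 0.44 and 0.18 in the knockdown arrays and -0.04, 0.04 and -0.002 in the controls. Both differences lay above all controls in each knockdown array. PSMB10 minus PSMB7 was -0.02, -0.07 and 0.01 in the knockdown arrays and -0.02, 0.10 and -0.08 in the controls, where the groups overlapped. PSME1 minus PSME3 was 0.47, 0.34 and 0.39 in the knockdown arrays and -0.002, -0.04 and 0.04 in the controls, again without overlap. These differences were formed from the same array values as the changes of the single genes, so they add no separate evidence. They were not tested.

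**Figure D3:**
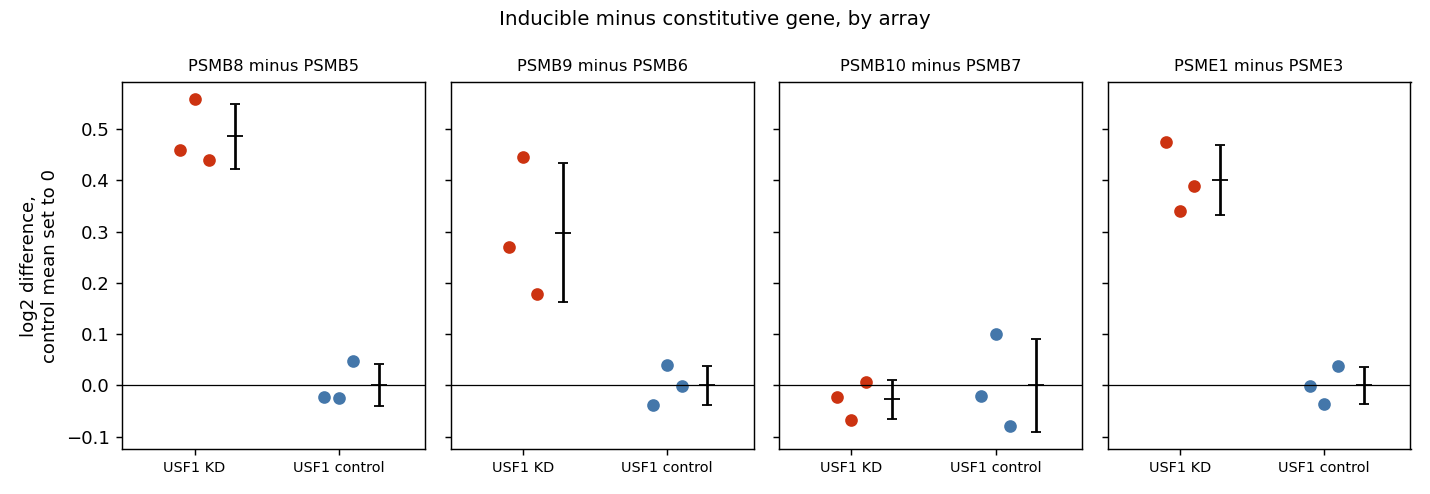
Log2 difference between an inducible and a constitutive gene on each USF1 array, with the control mean set to 0 and the mean and SD in black (n = 3 each). The knockdown arrays lie at 0.44 to 0.56 for PSMB8 minus PSMB5 and overlap the controls for PSMB10 minus PSMB7.

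In the 19S particle 2 of 14 measured genes rose (14.3%, background 22%) and 2 fell (14.3%, background 18.7%), with a median change of 0.05. The base holds the PSMC ATPases, which unfold substrates, and the scaffold and receptor subunits PSMD1, PSMD2 and PSMD4. Of its 8 measured genes none rose (background 22%) and 1 fell (12.5%, background 18.7%), namely PSMC6. It read 11.77, 11.74 and 11.74 in the knockdown arrays and 11.88, 11.86 and 11.85 in the controls, and fell by 0.12 (SE 0.03, adjusted p = 0.013). The call was lost without control 1 (adjusted p = 0.0508) and when every probe set, dim ones included, was averaged, which gave -0.01 (adjusted p = 0.823). PSMC1, PSMC2, PSMC3, PSMD1, PSMD2 and the ubiquitin receptor PSMD4 differed by 0.04 to 0.08, and PSMC4 by -0.04.

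The lid, which carries the deubiquitinase PSMD14, held changes in both directions. PSMD3 read 10.44, 10.36 and 10.39 in the knockdown arrays and 10.21, 10.22 and 10.28 in the controls, a rise of 0.16 (SE 0.04, adjusted p = 0.0126). Its 3 probe sets gave 0.10 to 0.16, of which 2 passed when tested singly. PSMD12 read 11.79, 11.79 and 11.78 in the knockdown arrays and 11.92, 11.97 and 11.90 in the controls, and fell by 0.14 (SE 0.03, adjusted p = 0.00853). Its 4 probe sets gave -0.28 to -0.07, of which 3 fell when tested singly. PSMD8 rose by 0.10 (adjusted p = 0.0406), a call lost without any 1 of the 6 arrays. PSMD14 itself differed by -0.001 (adjusted p = 0.984), PSMD6 by -0.03 and PSMD11 by -0.11 (adjusted p = 0.118). Together the 27 measured core and 19S genes had an SD of changes of 0.07, against 0.20 over all tested genes. The 2 sets were not matched for intensity. These core and 19S genes had means of 10.32 to 13.77, while all tested genes reach down to the limit of 5.63.

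Of the 8 assembly factors none rose (background 22%) and 2 fell (25%, background 18.7%; limma, 2 at an unadjusted p under 0.05). PSMG1, a chaperone of alpha ring assembly, read 9.93, 9.95 and 9.91 in the knockdown arrays and 10.03, 10.01 and 10.06 in the controls, and fell by 0.10 (SE 0.03, adjusted p = 0.0296). PSMD5, a chaperone of the 19S base, fell by 0.10 (adjusted p = 0.0409). PSMG2, PSMG3, PSMG4, PSMD9 and PSMD10 differed by -0.06 to 0.06 and did not pass. POMP, which guides beta ring assembly, differed by -0.005 on its brightest probe set. Its dimmest probe set read 7.42, 7.56 and 7.52 in the knockdown arrays and 7.92, 7.77 and 7.98 in the controls and fell by 0.39 when tested singly (adjusted p = 0.00342). The mean of its 3 probe sets gave -0.13 (adjusted p = 0.0204).

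**Figure D4:**
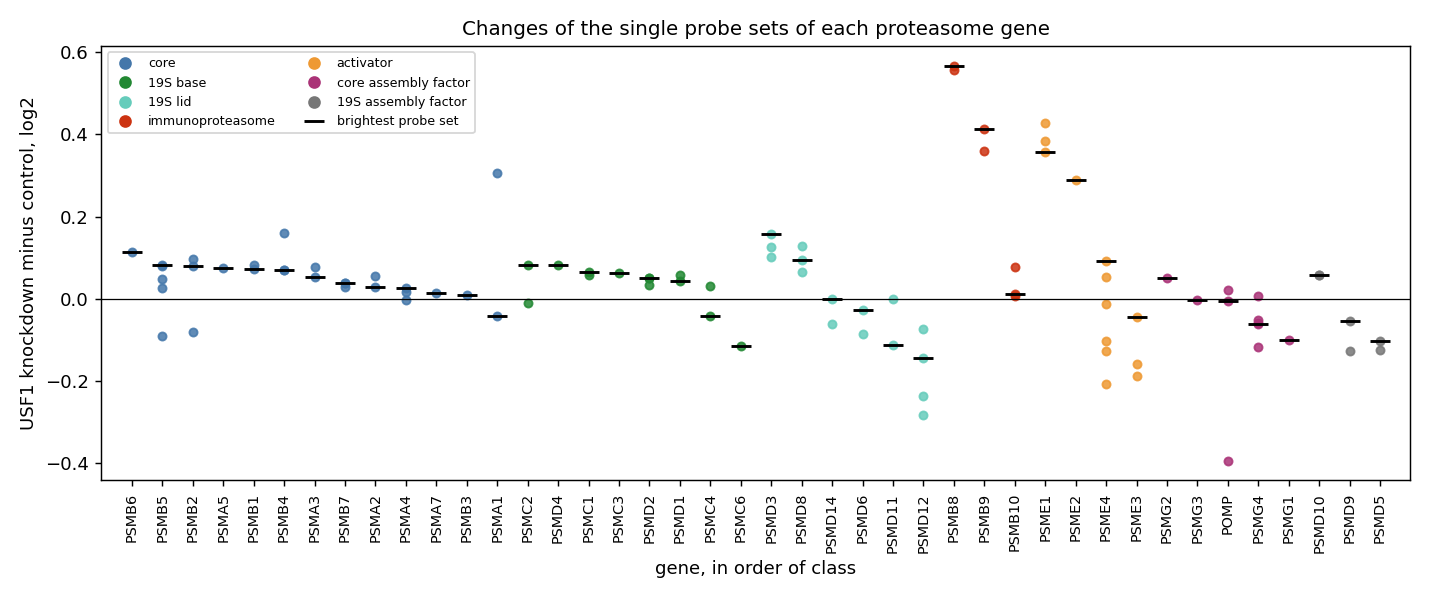
Change after USF1 knockdown (log2 knockdown minus control) of each bright probe set of the 42 measured genes, with the brightest probe set of a gene marked by a bar. The probe sets of PSMB8, PSMB9 and PSME1 lie close together, whereas those of PSME4 run from -0.21 to 0.09.

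Probe sets of a gene were also tested singly. Of the 105 member probe sets 96 lay above the limit, of which 13 rose (13.5%, background 20%) and 11 fell (11.5%, background 17.6%). All bright probe sets of PSMB8, PSMB9, PSME1 and PSME2 were among the rises.

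Among the other genes of the ubiquitin and proteasome system, 12 proteasome-associated subunits and cofactors were measured, of which 2 rose and 1 fell (background 22% and 18.7%). ZFAND2A, a stress-induced protein that binds the proteasome, rose by 0.30, and ZFAND5, which stimulates it, by 0.14 on a range of -0.32 to 0.25 over its 9 probe sets. UCHL5, a deubiquitinase of the 19S particle, fell by 0.14, but the mean of its probe sets gave -0.04 (adjusted p = 0.465). TXNL1 differed by 0.05 (adjusted p = 0.218). Of 9 ubiquitin receptors and shuttles 2 rose and none fell (background 22% and 18.7%), namely SQSTM1 (0.40) and RAD23B (0.29), but the probe sets of SQSTM1 ran from 0.02 to 0.58 and those of RAD23B from -0.26 to 0.86. Without probe sets of shared probes SQSTM1 gave 0.02 (adjusted p = 0.775) and its call was lost. DDI2 and UBQLN4 differed by 0.14 and 0.06 (adjusted p = 0.214 and 0.23).

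Of 15 ubiquitin-conjugating enzymes 7 rose and 4 fell (background 22% and 18.7%). UBE2L6, which carries the ubiquitin-like ISG15 and is induced by interferon, read 7.85, 7.85 and 7.83 in the knockdown arrays and 7.12, 7.26 and 7.24 in the controls, a rise of 0.64 (SE 0.04, adjusted p = 1.13e-04). CDC34, the partner of cullin ligases, fell by 0.59 and UBE2G2, an enzyme of endoplasmic reticulum degradation, by 0.36, while UBE2A rose by 0.28. Of 5 ubiquitin genes and activating enzymes none rose and 1 fell (background 22% and 18.7%). UBA6 was the one that fell, by 0.19, and UBB, UBA3 and UBA1 differed by -0.01 to 0.02. Of 18 genes of p97 and endoplasmic reticulum degradation 5 rose and 3 fell (background 22% and 18.7%), among them SEL1L (0.22), FAF2 (0.19), DERL2 (0.19) and HERPUD1 (-0.17). With the mean of all probe sets SEL1L, FAF2, ZFAND5 and UBE2G2 kept their calls at 0.10, 0.09, 0.08 and -0.16.

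The listed transcription factors of proteasome genes, counted with KEAP1, which is not one itself, gave 2 rises and 4 falls among 9 (background 22% and 18.7%). NFE2L1, known to drive proteasome genes when proteasome activity is low, differed by 0.03 (adjusted p = 0.386). NFE2L3, a relative of NFE2L1, fell by 0.19, and the small Maf partner MAFF fell by 0.43. NFE2L3 kept its call in 10 of 16 alternatives, and was at -0.11 (adjusted p = 0.0718) with the mean of all probe sets. It also missed the threshold without knockdown 1, knockdown 3, control 2 or control 3. MAFF was at -0.18 (adjusted p = 0.0975) without probe sets of shared probes. KEAP1 and the NF-Y subunit NFYC rose by 0.21 and 0.17. Of 14 other cytosolic and mitochondrial proteases 2 rose and 6 fell (background 22% and 18.7%). THOP1, which degrades peptides released by the proteasome, fell by 1.69, the aminopeptidase XPNPEP1 by 0.51 and AFG3L2 of the mitochondrial inner membrane by 0.29, and BLMH rose by 0.21.

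In the UGT1A3 pair the inducible catalytic genes PSMB9 and PSMB8 stood highest and most constitutive genes were lower in the knockdown array. PSMB9 read 7.71 in the knockdown array and 7.19 in the control, a difference of 0.52 (1.43-fold), and its other bright probe set gave 0.35. PSMB8 read 9.09 in the knockdown array and 8.71 in the control, a difference of 0.38 (1.3-fold), and its other bright probe set gave 0.31. These were the 2 members at least 1.2-fold higher (4.76% of 42, background 15.6% of 11618 genes). With 1 array a group there is no replicate check and no p-value.

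PSMB10 differed by -0.01, as the knockdown array read 9.0 and the control 9.01. PSME1 was higher by 0.20, with 10.53 in the knockdown array and 10.34 in the control, and its 3 probe sets gave 0.20 to 0.27. PSME2, its partner in PA28, read 9.22 in the knockdown array and 9.28 in the control, a difference of -0.07. The leukocyte markers summed to 470 in the knockdown array and 407 in the control, where CD68 was higher by 0.47 while CD3E, CD74, CSF1R and CORO1A differed by -0.28, -0.29, -0.12 and -0.07. The interferon-linked IRF9 and UBE2L6 were higher by 0.95 and 0.37. Of 16 measured genes of the interferon and antigen processing list, 5 were at least 1.2-fold higher and 0 lower (background 15.6% and 12%). Their median was 0.18, against 0.02 over all genes. B2M, IRF1, TAP2, TAPBP and TAP1 of that list differed by -0.003 to -0.14. The part of the leukocyte markers or of these genes in the result was not tested.

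At least 1.2-fold lower were 5 members (11.9%, background 12%). PSMG1 read 8.99 in the knockdown array and 9.39 in the control, a difference of -0.40. The base ATPase PSMC4 read 10.19 in the knockdown array and 10.59 in the control, a difference of -0.39, and its other probe set gave -0.40. PSME4 read 9.15 in the knockdown array and 9.48 in the control, -0.33, but its 6 probe sets ran from -0.45 to 0.17. The lid gene PSMD6 read 10.16 in the knockdown array and 10.46 in the control, and the base scaffold PSMD1 read 10.66 in the knockdown array and 10.95 in the control, each -0.29.

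By class the 19S genes had a median difference of -0.18 in this pair, with 13 of 14 below 0, and PSMD4 (0.07) the exception. The core had -0.06 with 11 of 13 below 0, where PSMB4 (0.06) and PSMB7 (0.03) were above. All 6 alpha genes lay below 0, at -0.19 to -0.04, and the beta genes lay between -0.11 and 0.06. The median over all genes was 0.02. Assembly factors had a median of -0.03, with PSMD9 highest at 0.13. Of the 12 proteasome-associated genes 1 was at least 1.2-fold higher (ZFAND2A, 0.34) and 1 lower (USP14, -0.35), with a median of -0.02; USP14 was chosen after its values were seen.

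**Figure D5:**
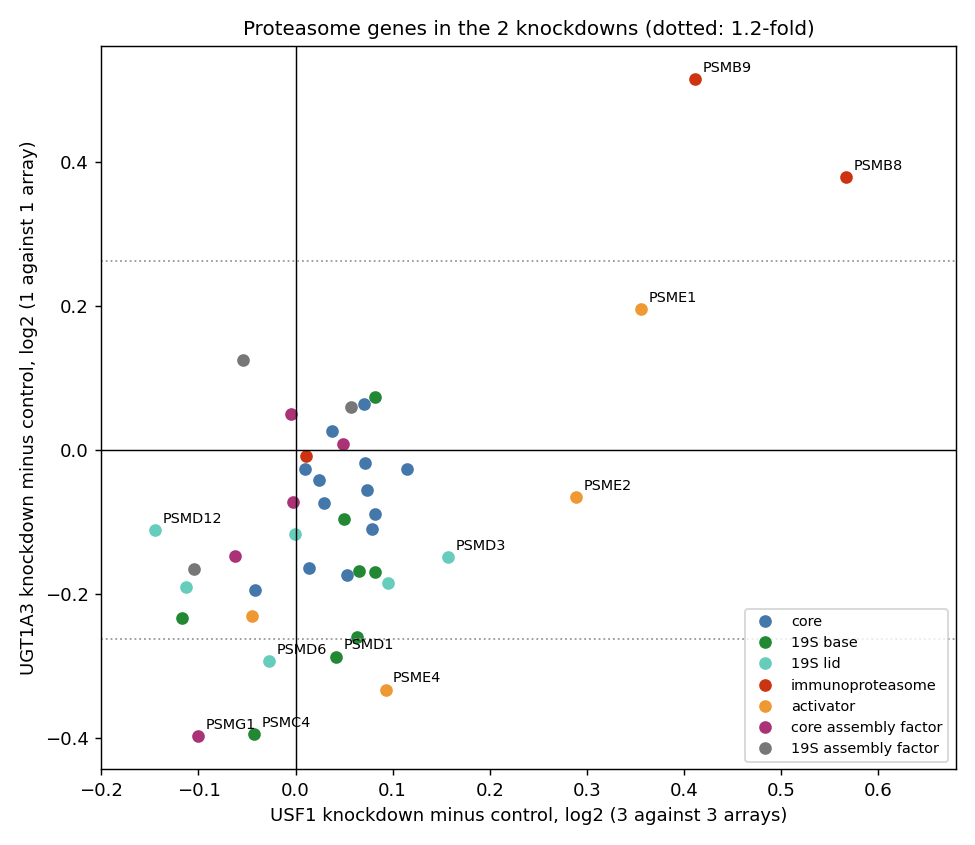
Difference of each proteasome gene in the UGT1A3 pair (vertical, log2, 1 against 1 array) against its change after USF1 knockdown (horizontal, log2, 3 against 3 arrays), coloured by class, with dotted lines at 1.2-fold. PSMB8 and PSMB9 lie at the upper right, and most core and 19S genes lie below 0 on the vertical axis.

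The 2 comparisons share no arrays. Across the 42 genes the changes had a Pearson correlation of 0.673 and a Spearman correlation of 0.382, as a description over genes that are not independent. Without PSMB8, PSMB9 and PSME1, which were chosen for their position, Pearson's r was 0.262 over 39 genes, and over all 11128 genes measured in both sets it was 0.166. PSMB8 and PSMB9 rose by at least 1.2-fold after USF1 knockdown and were at least 1.2-fold higher in the UGT1A3 pair, as were 3.17% of all genes measured in both.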

How the data were processed

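RNA was measured on Affymetrix arrays with biotin-labelled total RNA, per the labels. For each probe set the authors deposited a log2 intensity on each array. MAS5 stands, with no role stated, in the list of tools per the submitters' processing notes; how arrays were scaled to each other is unstated there. Base 2 was inferred from the span of the values. The 102 control probe sets were left out. Gene names came from the platform annotation, updated by Entrez number. Where a gene had several probe sets, the one brightest on average in a set of arrays stood for it. Genes below percentile 40 of the probe set means (5.63 in the USF1 arrays, 4.76 in the UGT1A3 pair) counted as dim and were not tested. USF1 arrays were fitted with limma 3.58.1 (R 4.3.3), without a block, and p-values were adjusted by the Benjamini-Hochberg method over 11448 genes. The fit was tested on simulated data. Named genes are all members, the knockdown targets and, of each list, up to 4 with the smallest adjusted p, except where the text says otherwise. Marker genes, NFE2L1 and NFE2L2 were added from the lists after their values were seen. The members and lists were chosen with earlier results of these data known. Alternatives were other scalings, dim limits, an offset of 16 intensity units, other choices of probe set, another prior, a block for the replicate number, and omission of single arrays; dropping probe sets with the suffixes of shared probes was chosen after seeing the data.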

Additional observations from a re-analysis of the deposited data

How the results depend on the processing

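Of 12 called proteasome genes 6 kept their call after USF1 knockdown under every one of 16 alternatives in which they were measured. With no filter on dim probe sets 5 of 44 rose and 2 fell (14 probe sets called), beside 1995 and 1649 of all 18132 genes. An intensity trend and robust prior gave 17 rises and 5 falls among 42 members (48 probe sets called, against 24). Over all 11448 genes that setting gave 2886 rises and 2478 falls. A dim limit at percentile 60 gave 11 rises and 4 falls among 42 members, beside 2461 and 2158 of 8394 genes. As a replicate block the shared numbers gave 5 rises and 2 falls, beside 2305 and 1928 among all 11448 genes. The deviations of same-numbered arrays correlated at -0.101, 0.204 and 0.0927. Not every array correlated best with its own number, so the numbers are not taken as pairs. Leaving out 1 array gave 3644 to 4365 called genes in all (4657 with all arrays), 5 to 8 rises, 1 to 4 falls and 15 to 21 called probe sets, and medians of 0.05 to 0.06 (core), 0.03 to 0.06 (19S), 0.34 to 0.49 (immunoproteasome), 0.18 to 0.20 (activators) and -0.04 to -0.02 (assembly factors). With the mean of all probe sets, which takes in dim ones, PSME4 turned to -0.051, and the medians were 0.019 (19S), 0.23 (immunoproteasome), 0.12 (activators) and -0.070 (assembly factors); in the UGT1A3 pair 0 members were then 1.2-fold higher, with medians of 0.17 (immunoproteasome) and -0.10 (activators). Without shared-probe suffixes the USF1 medians were 0.038 (core) and 0.053 (activators), and the UGT1A3 core median -0.074. Scaling moved the UGT1A3 medians to -0.027 (core), -0.15 (19S) and -0.0098 (assembly factors) by quantiles, and to -0.087, -0.21 and -0.063, with -0.18 for activators, by centring. The causes were not tested.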

Other observations

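A probe set annotated to both PSMA6, an alpha ring gene, and PRORP had means of 12.29 in the USF1 knockdown arrays and 12.30 in the controls, a difference of -0.01, and differed by -0.07 in the UGT1A3 pair.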
